A study of Oryza sativa with 10 samples.

Results

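The 8 genes described here bring inorganic nitrogen into rice roots. They are the ammonium transporter genes OsAMT1;1, OsAMT1;2 and OsAMT1;3, the high-affinity nitrate transporter genes OsNRT2.1, OsNRT2.2 and OsNRT2.3, the gene of their partner protein OsNAR2.1, and the nitrate transporter and sensor gene OsNRT1.1B. They were taken by locus identifier, a rule that holds no measured value, though with earlier results of these data known, from 37869 annotated loci of the IRGSP 1.0 rice genome annotation. Of the 8 genes, 5 lie on chromosome 2 (OsAMT1;2, OsAMT1;3, OsNRT2.1, OsNRT2.2 and OsNAR2.1), and 1 each on chromosomes 1 (OsNRT2.3), 4 (OsAMT1;1) and 10 (OsNRT1.1B).

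RNA-Seq of rice roots was performed for 4 transgenic lines and for non-transgenic plants (NT) of the japonica cultivar Illmi, at an age of 20 days, with 2 biological replicates in each of the 5 groups (10 libraries). The groups were RCc3:myc-OsNAC5, RCc3:OsNAC6-myc, RCc3:myc-OsNAC9, RCc3:OsNAC10-myc and NT, and the transgenic groups are called the OsNAC5, OsNAC6, OsNAC9 and OsNAC10 lines below. Each line expresses the MYC-tagged coding sequence of 1 NAC transcription factor from RCc3, a promoter active mainly in roots, together with a herbicide resistance gene for selection, and the NT plants carry no construct. The comparison asks which root genes change when each factor is overexpressed. Plants with the highest amount of tagged protein were chosen among independent transformants of each construct, and the sources do not state how many transformants the 2 libraries of a line represent. A construct and the line that carries it can therefore not be told apart. The methods describe seedlings that stood fully under water for some days before the roots were cut, whereas the sample labels speak of normal growth, so the oxygen and nitrogen supply of the roots at harvest is not settled by the sources.

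Soil nitrogen reaches rice roots as ammonium, which prevails in flooded soil, and as nitrate, which forms where oxygen reaches the soil around the root. AMT1 proteins carry ammonium across the plasma membrane of root cells. NRT2 proteins carry nitrate when it is scarce, and OsNRT2.1, OsNRT2.2 and one form of OsNRT2.3 work only together with OsNAR2.1, a small protein that does not carry nitrate itself. OsNRT1.1B belongs to another transporter family and takes part both in nitrate transport and in nitrate sensing. Genes of the NRT2 system are known to respond strongly to the nitrate, ammonium and amino acid supply of the plant.

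Each deposited value is an FPKM, a number of fragments scaled to transcript length and library size, and the values of all transcripts of a locus were added. Differences are given as log2 fold changes of line over NT on the log2(FPKM + 1) scale, from limma over the 29915 loci above 0 in all 10 libraries, with p-values adjusted by Benjamini-Hochberg over those loci. A gene is called higher or lower where the adjusted p is under 0.05 and the change is at least 1.5 fold. All 8 genes were among the loci tested. The same 2 NT libraries are the control of all 4 lines, so the 4 comparisons are not independent. In whole roots, fewer cells of a type and less RNA per cell cannot be told apart.

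The libraries were of similar total signal, 742051 to 789304 FPKM in the line libraries and 730218 to 732809 FPKM in the NT libraries. Read totals per library are not part of the values, but the spacing of the lowest FPKM values gave a depth of 0.919 to 1.48 times that of NT replicate 1 in the line libraries and 1.56 times in NT replicate 2, from the 23.3% to 30.2% of 1283 to 1819 low transcripts that fell on one spacing. Among loci of at least 200 FPKM, the spread between the 2 libraries of a group (median absolute deviation of their log2 ratio) was 0.302 in the OsNAC6 line, 0.104 to 0.180 in the other lines and 0.0654 in NT, so that results for the OsNAC6 line are also given without each of its libraries where that changes a call. OsNAC5 transcripts were at 146 and 154 FPKM in the OsNAC5 line against 46.6 and 45.3 FPKM in NT, OsNAC9 transcripts at 413 and 558 FPKM in the OsNAC9 line against 50.1 and 49.8 FPKM in NT, OsNAC6 transcripts at 129 and 123 FPKM in the OsNAC6 line against 96.5 and 96.4 FPKM in NT, and OsNAC10 transcripts at 35.1 and 34.7 FPKM in the OsNAC10 line against 27.4 and 27.1 FPKM in NT. These sums count transgene and endogenous transcripts together, and each of the 4 factors was highest in its own line. OsNAC5 and OsNAC9 were called higher in their own lines. OsNAC6 (0.38) and OsNAC10 (0.35) were under 1.5 fold in theirs and not called. OsNAC5 was called lower in the OsNAC6, OsNAC9 and OsNAC10 lines (−1.22, −0.70 and −0.94). OsNAC9 was called lower in the OsNAC6 and OsNAC10 lines (−0.77 and −1.28). The root marker RCc3 was abundant in every library (1660 to 2667 FPKM in the lines, 1878 and 1927 FPKM in NT). The 6 leaf markers summed to 7.08 to 10.5 FPKM in the lines and to 8.52 and 9.91 FPKM in NT, with none at 0 throughout.

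**Figure D1:**
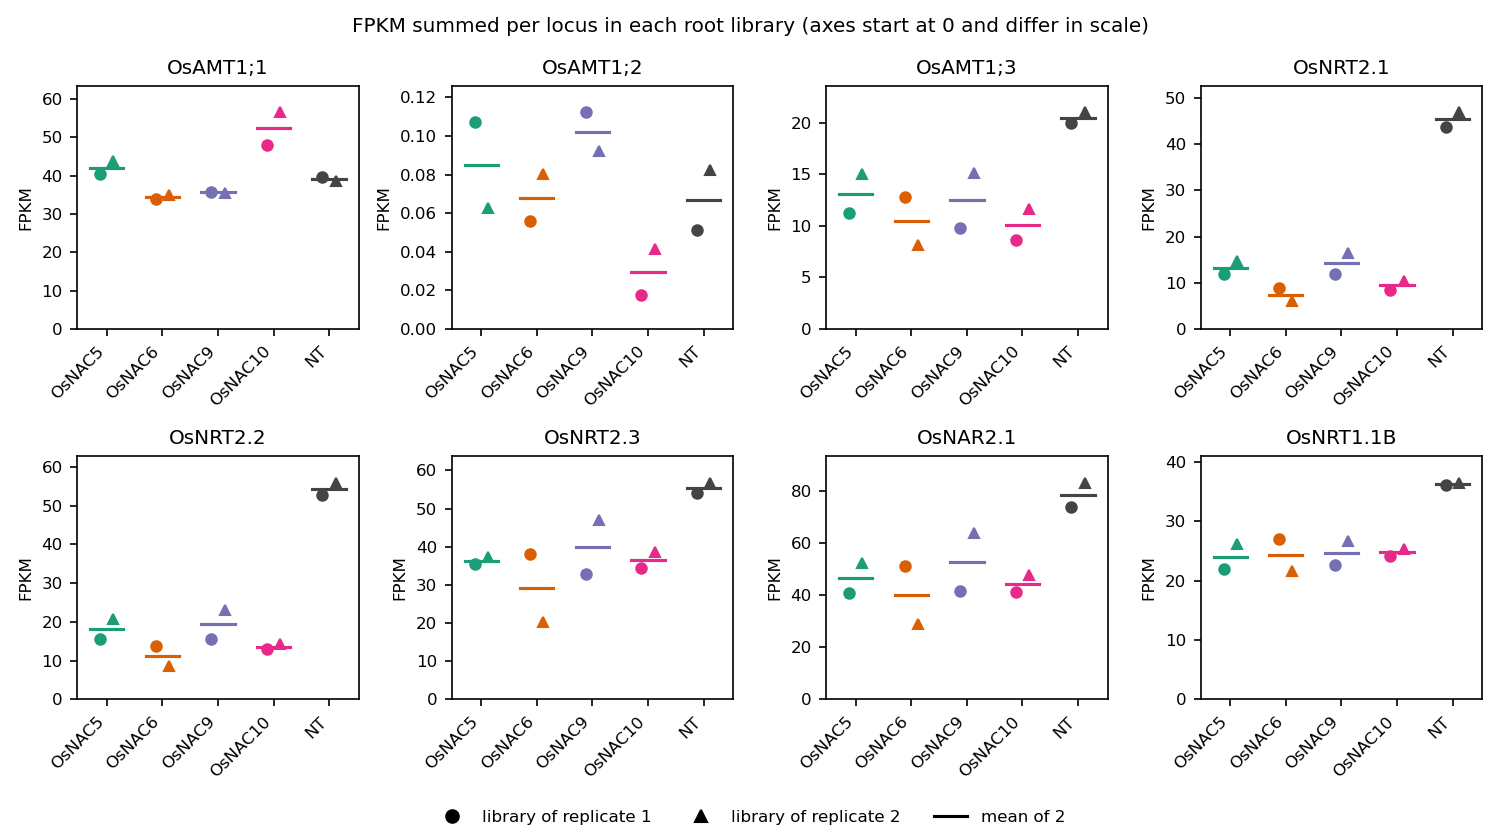
FPKM summed per locus (vertical axes, starting at 0 and differing in scale) of the 8 genes in the 2 libraries of each line and of NT. Circles are replicate 1, triangles are replicate 2 and horizontal lines are the mean of 2. For OsAMT1;3, the 3 OsNRT2 genes, OsNAR2.1 and OsNRT1.1B, all 8 line libraries lie below both NT libraries, whereas OsAMT1;1 and OsAMT1;2 show no such separation.

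The nitrate transporter genes OsNRT2.1 and OsNRT2.2 were lower in all 4 lines, at mean levels that NT exceeded 2.81 to 6.13 times, while the most abundant ammonium transporter gene, OsAMT1;1, was not lower by the test in any line. Of the 8 genes, 2 were called lower in the OsNAC5 line, 5 in the OsNAC6 line, 2 in the OsNAC9 line and 3 in the OsNAC10 line, and none was called higher. At an unadjusted limma p under 0.05, 5, 6, 4 and 6 of the 8 genes differed in the OsNAC5, OsNAC6, OsNAC9 and OsNAC10 lines, beside 20.6%, 38.1%, 33.1% and 40.9% of all loci tested, and 1 of these, OsAMT1;1 in the OsNAC10 line, was higher. Over all loci tested, 2.78%, 7.07%, 4.91% and 9.86% were called lower in the OsNAC5, OsNAC6, OsNAC9 and OsNAC10 lines, in that order, and 1.78%, 5.32%, 4.43% and 4.61% were called higher. OsNRT2.1 and OsNRT2.2 were called lower in all 4 lines, as were 1.72% of all loci tested. The median log2 fold change of the 8 genes was −0.61, −0.95, −0.57 and −0.70 in the OsNAC5, OsNAC6, OsNAC9 and OsNAC10 lines, beside 0.02, 0.01, 0.02 and 0.02 over all loci tested. For 6 of the 8 genes all 8 line libraries lay below both NT libraries, which was so for 14.6% of all loci tested. In a moderated F test over the 5 groups, 4 of the 8 genes passed (OsNRT2.1, OsNRT2.2, OsAMT1;1 and OsNRT1.1B), beside 29.8% of all loci tested.

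**Figure D2:**
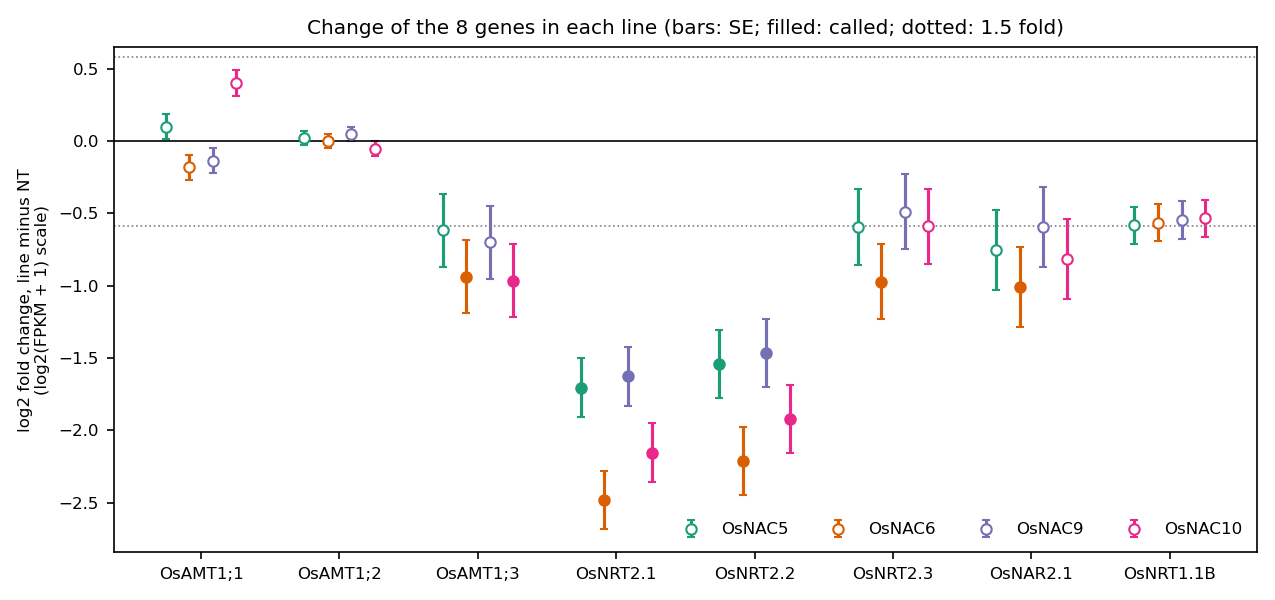
Log2 fold change of line over NT on the log2(FPKM + 1) scale (vertical axis) of the 8 genes (horizontal axis) in the 4 lines, with bars of 1 SE from the fit. Filled symbols are called changes and dotted lines mark 1.5 fold. OsNRT2.1 and OsNRT2.2 are filled in all 4 lines, at −1.47 to −2.48, and OsAMT1;1 in the OsNAC10 line is the highest point, at 0.40.

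OsNRT2.1 (Os02g0112100), which encodes a high-affinity nitrate carrier of the root, showed the largest difference. It was at 11.9 and 14.6 FPKM in the OsNAC5 line, 8.81 and 6.00 FPKM in the OsNAC6 line, 11.9 and 16.5 FPKM in the OsNAC9 line and 8.46 and 10.5 FPKM in the OsNAC10 line, against 43.7 and 47.0 FPKM in NT. Every line library was far below both NT libraries, and the spread within each group was small beside that gap. The group means were 13.3 ± 1.92, 7.40 ± 1.99, 14.2 ± 3.28 and 9.46 ± 1.42 FPKM in the OsNAC5, OsNAC6, OsNAC9 and OsNAC10 lines and 45.4 ± 2.28 FPKM in NT (SD, n = 2 each). As ratios of means, NT was 3.42, 6.13, 3.20 and 4.79 times the OsNAC5, OsNAC6, OsNAC9 and OsNAC10 lines. In the same order of lines the log2 fold changes were −1.70, −2.48, −1.63 and −2.15, each with an SE of 0.20, and the limma adjusted p-values were 0.00129, 0.000105, 0.00112 and 0.000196. The OsNAC6 line had the lowest mean, but its difference from the OsNAC5 line (−0.78, limma adjusted p = 0.0661) and from the OsNAC9 line (0.86 for OsNAC9 over OsNAC6, limma adjusted p = 0.0670) was not called. The order of the 4 lines for OsNRT2.1 is therefore not established by these libraries.

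OsNRT2.2 (Os02g0112600), the nearby and nearly identical copy of OsNRT2.1, followed the same order of groups. It was at 15.6 and 20.8 FPKM in the OsNAC5 line, 13.9 and 8.63 FPKM in the OsNAC6 line, 15.6 and 23.0 FPKM in the OsNAC9 line and 12.9 and 14.3 FPKM in the OsNAC10 line, against 52.8 and 56.0 FPKM in NT. No line library reached 24 FPKM, and both NT libraries were above 50 FPKM. Relative to NT, the log2 fold changes were −1.54, −2.21, −1.47 and −1.92 (SE 0.24, lines in the order OsNAC5, OsNAC6, OsNAC9, OsNAC10), and the limma adjusted p-values were 0.00520, 0.000444, 0.00409 and 0.000778. Without NT replicate 2 the call in the OsNAC5 line was lost (limma adjusted p = 0.0520). Both loci carry the same deposited description, and how fragments that match both were shared out is not given in the sources used here, so the split between them is uncertain.

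The sum of OsNRT2.1 and OsNRT2.2 depends less on that split, though shared fragments dropped or counted at both loci would still affect it. It was 27.5 and 35.4 FPKM in the OsNAC5 line, 22.7 and 14.6 FPKM in the OsNAC6 line, 27.5 and 39.5 FPKM in the OsNAC9 line and 21.4 and 24.8 FPKM in the OsNAC10 line, against 96.5 and 102.9 FPKM in NT. For the sum, log2 fold changes of −1.64, −2.39, −1.57 and −2.07 were found for OsNAC5, OsNAC6, OsNAC9 and OsNAC10 (SE 0.23), and it stayed lower in all 4 lines with limma adjusted p-values of 0.00291, 0.000248, 0.00244 and 0.000436. OsNRT2.2 stood at 1.31 to 1.57 times OsNRT2.1 in the line libraries and at 1.19 and 1.21 times in the NT libraries, a description that rests on the same uncertain split.

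OsNRT2.3 (Os01g0704100), whose longer form carries nitrate toward the shoot with the help of OsNAR2.1, differed less. It was at 35.4 and 37.3 FPKM in the OsNAC5 line, 38.1 and 20.2 FPKM in the OsNAC6 line, 32.8 and 46.9 FPKM in the OsNAC9 line and 34.3 and 38.8 FPKM in the OsNAC10 line, against 54.0 and 56.8 FPKM in NT. All line libraries were below both NT libraries, but the 2 OsNAC6 libraries were far apart from each other. Log2 fold changes over NT were −0.59, −0.97, −0.49 and −0.59 in the OsNAC5, OsNAC6, OsNAC9 and OsNAC10 lines (SE 0.26), and only the OsNAC6 line passed (limma adjusted p = 0.0274). That call was lost without OsNAC6 replicate 2, the lower library (−0.53, limma adjusted p = 0.0632), and without NT replicate 1 (limma adjusted p = 0.104) or NT replicate 2 (limma adjusted p = 0.131). The adjusted p-values of the OsNAC5, OsNAC9 and OsNAC10 lines were 0.245, 0.235 and 0.126 in limma, and without OsNAC6 replicate 1 or 2, which also feed the shared spread, the OsNAC5 line (limma adjusted p = 0.0464 and 0.0463) and the OsNAC10 line (limma adjusted p = 0.0192 and 0.0191) passed.

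The OsNRT2.3 locus holds 2 annotated transcripts. Os01t0704100-02 made up 88.0% to 95.5% of the locus sum in the line libraries and 91.6% and 93.8% in the NT libraries, as FPKM attributed to each transcript. Os01t0704100-02 ran between 18.2 and 42.6 FPKM in the line libraries and stood at 50.6 and 52.1 FPKM in NT. Like the locus, it was called lower in the OsNAC6 line alone (log2 fold change −0.99, limma adjusted p = 0.0314, lost at 0.0501 to 0.139 without OsNAC6 replicate 2 or any 1 of the OsNAC5, OsNAC10 and NT libraries), where 7% of all transcripts tested were called lower, beside 2.51% in the OsNAC5 line. Os01t0704100-01 ran between 1.46 and 4.36 FPKM in the line libraries, which overlapped the 3.33 and 4.78 FPKM of NT, and was not called in any line. Its fitted difference in the OsNAC10 line was 0.067 (limma adjusted p = 0.922).

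**Figure D3:**
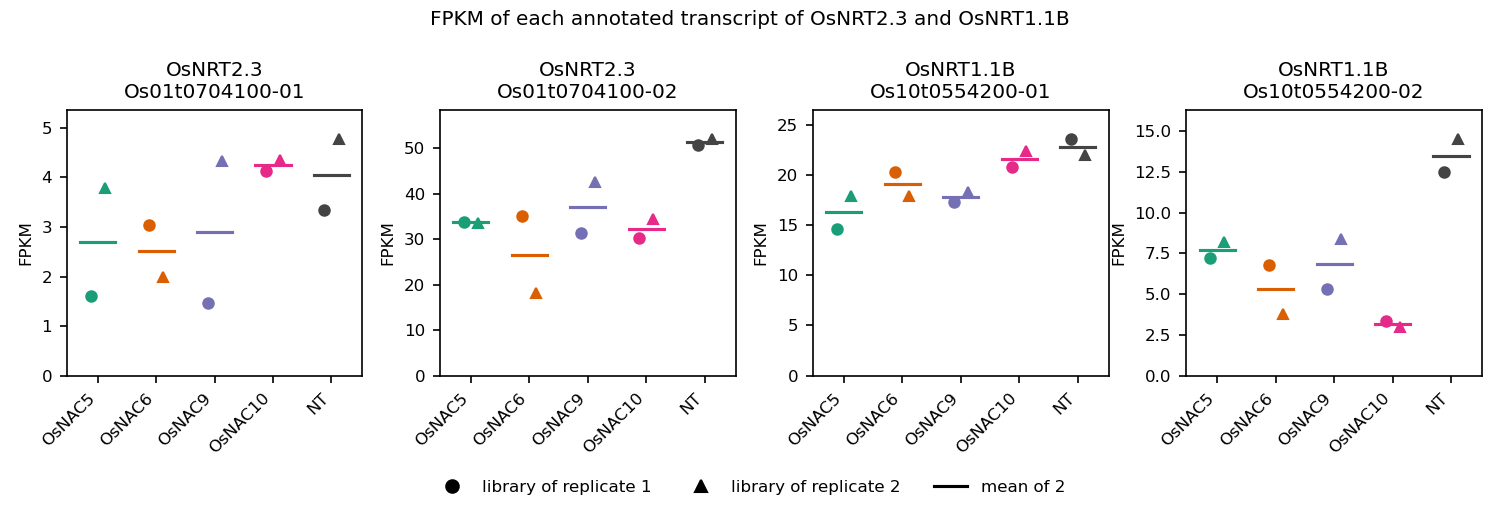
FPKM (vertical axes, starting at 0 and differing in scale) of each annotated transcript of OsNRT2.3 and OsNRT1.1B in the 2 libraries of each line and of NT. Circles are replicate 1, triangles are replicate 2 and horizontal lines are the mean of 2. For Os10t0554200-02 the line libraries lie between 3.01 and 8.39 FPKM and the NT libraries at 12.5 and 14.5 FPKM, whereas Os10t0554200-01 overlaps between the OsNAC10 line and NT.

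OsNAR2.1 (Os02g0595900), the partner that NRT2 proteins need at the membrane, was the most abundant of the 8 genes in NT. It was at 40.8 and 52.2 FPKM in the OsNAC5 line, 51.2 and 28.8 FPKM in the OsNAC6 line, 41.6 and 63.9 FPKM in the OsNAC9 line and 41.0 and 47.6 FPKM in the OsNAC10 line, against 73.8 and 83.2 FPKM in NT. All line libraries were below both NT libraries, with OsNAC9 replicate 2 the closest to them. The fit gave log2 fold changes of −0.75, −1.01, −0.59 and −0.81 in the OsNAC5, OsNAC6, OsNAC9 and OsNAC10 lines (SE 0.28), and the limma adjusted p-values were 0.165, 0.0297, 0.176 and 0.0579. The gene was thus called lower in the OsNAC6 line only, and that call was lost without OsNAC6 replicate 2 (−0.60, limma adjusted p = 0.101) and without NT replicate 1 (limma adjusted p = 0.0962) or NT replicate 2 (limma adjusted p = 0.149). In the OsNAC10 line it passed without OsNAC6 replicate 1 or 2 (limma adjusted p = 0.0174 and 0.0175) and without OsNAC9 replicate 1 or 2 (limma adjusted p = 0.0474 and 0.0476). Whether the change of OsNAR2.1 differs between lines was tested in 6 contrasts of line against line, and none was called.

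OsNAR2.1 and OsNRT2.3 lay nearer to their NT levels than OsNRT2.1 and OsNRT2.2 did. The ratio of OsNAR2.1 to the sum of the 3 OsNRT2 genes was 0.648 to 0.844 in the line libraries and 0.490 and 0.521 in the NT libraries. OsNRT2.3 was 51.3% to 62.7% of the summed FPKM of the 3 OsNRT2 genes in the line libraries and 35.6% and 35.9% in the NT libraries. The summed FPKM of the 3 OsNRT2 genes was 34.8 to 86.4 in the line libraries and 150.5 and 159.8 in the NT libraries. These ratios are descriptions with no test, and they overlapped between lines and NT in no library.

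OsNRT1.1B (Os10g0554200), the transporter and nitrate sensor, had nearly the same locus sum in every line, of which 66.95% to 88.1% was Os10t0554200-01, a transcript whose deposited description names another protein family. The sum was at 21.9 and 26.1 FPKM in the OsNAC5 line, 27.1 and 21.7 FPKM in the OsNAC6 line, 22.6 and 26.7 FPKM in the OsNAC9 line and 24.1 and 25.4 FPKM in the OsNAC10 line, against 36.1 and 36.5 FPKM in NT. The 8 line libraries shared one narrow range below NT. On the log2 scale the differences from NT were −0.58, −0.56, −0.55 and −0.53 in the OsNAC5, OsNAC6, OsNAC9 and OsNAC10 lines (SE 0.13), and the limma adjusted p-values were 0.0314, 0.0154, 0.0225 and 0.0169. All 4 differences passed on the adjusted p and lay just under 1.5 fold, so none was a call. The OsNAC5 line became one with a pseudocount of 0.1 or after quantile normalization (−0.60 in both), the OsNAC6 line without OsNAC6 replicate 1 (−0.72, limma adjusted p = 0.00843) and the OsNAC9 line without OsNAC9 replicate 2 (−0.66, limma adjusted p = 0.0393).

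The 2 transcripts of the OsNRT1.1B locus differed from each other. Os10t0554200-02, described in the deposited table as a nitrate transporter, was at 7.23 and 8.22 FPKM in the OsNAC5 line, 6.80 and 3.81 FPKM in the OsNAC6 line, 5.31 and 8.39 FPKM in the OsNAC9 line and 3.36 and 3.01 FPKM in the OsNAC10 line, against 12.5 and 14.5 FPKM in NT. It was called lower in the OsNAC6 (−1.24, limma adjusted p = 0.0118), OsNAC9 (−0.91, limma adjusted p = 0.0464) and OsNAC10 lines (−1.79, limma adjusted p = 0.00220), and not in the OsNAC5 line (−0.73, limma adjusted p = 0.159). In those 3 lines, 7%, 4.6% and 10% of all transcripts tested were called lower. The call in the OsNAC10 line held with each library left out in turn, that in the OsNAC6 line was lost without NT replicate 1 or 2 (limma adjusted p = 0.0517 and 0.0839), and that in the OsNAC9 line was lost without OsNAC9 replicate 1 or any 1 of the OsNAC5, OsNAC10 and NT libraries (limma adjusted p = 0.0710 to 0.221). Between lines, Os10t0554200-02 was called lower in the OsNAC10 than in the OsNAC5 line (−1.06, limma adjusted p = 0.0324), as were 5.62% of all transcripts tested, and that call was lost without any 1 of the OsNAC10, OsNAC5 and NT libraries (limma adjusted p = 0.0593 to 0.167). Os10t0554200-01 ran between 14.7 and 22.4 FPKM in the line libraries and stood at 23.6 and 21.9 FPKM in NT, with no call. Os10t0554200-02 made up 11.9% to 33.0% of the locus sum in the line libraries and 34.6% and 39.9% in the NT libraries. Overlapping transcripts are separated by estimation, and the error of that step is not part of these tests.

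OsAMT1;1 (Os04g0509600), an ammonium transporter gene active in both roots and shoots, was the exception among the abundant members. It was at 40.5 and 43.7 FPKM in the OsNAC5 line, 33.9 and 34.9 FPKM in the OsNAC6 line, 35.7 and 35.5 FPKM in the OsNAC9 line and 47.98 and 56.6 FPKM in the OsNAC10 line, against 39.7 and 38.6 FPKM in NT. Both OsNAC10 libraries and both OsNAC5 libraries were above NT, and both OsNAC6 and both OsNAC9 libraries were below it. Its log2 fold changes over NT were 0.10, −0.18, −0.13 and 0.40 in the OsNAC5, OsNAC6, OsNAC9 and OsNAC10 lines (SE 0.09), and only that of the OsNAC10 line passed on the adjusted p (0.0111 in limma), under 1.5 fold. The 95% intervals of the other 3 were −0.10 to 0.30, −0.38 to 0.02 and −0.34 to 0.07 for the OsNAC5, OsNAC6 and OsNAC9 lines.

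By the test of locus sums, lines differed from each other in 1 of the 8 genes, OsAMT1;1, apart from the single transcript of OsNRT1.1B given above. The OsNAC10 line exceeded the OsNAC6 line by 0.59 on the log2 scale, the only call in 6 contrasts of line against line (limma adjusted p = 0.00694). At least 1 such call was made for 13.5% of all loci tested, and 1.34% were called higher in the OsNAC10 than in the OsNAC6 line. The OsNAC10 line also exceeded the OsNAC9 line by 0.54 (limma adjusted p = 0.00554), under 1.5 fold, and the OsNAC5 line by 0.30 (limma adjusted p = 0.0552). Without OsNAC10 replicate 2, the higher library, no gene of the 8 differed by call between lines.

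OsAMT1;3 (Os02g0620600), an ammonium transporter gene, was called lower in the OsNAC6 and OsNAC10 lines. It was at 11.3 and 15.003 FPKM in the OsNAC5 line, 12.8 and 8.17 FPKM in the OsNAC6 line, 9.85 and 15.2 FPKM in the OsNAC9 line and 8.64 and 11.6 FPKM in the OsNAC10 line, against 20.0 and 21.1 FPKM in NT. All 8 line libraries were below both NT libraries. Over the OsNAC5, OsNAC6, OsNAC9 and OsNAC10 lines, its log2 fold changes were −0.62, −0.94, −0.70 and −0.96 (SE 0.25), and the limma adjusted p-values were 0.209, 0.0277, 0.0917 and 0.0226. The call in the OsNAC6 line was lost without OsNAC6 replicate 2 (−0.64, limma adjusted p = 0.103), NT replicate 1 (limma adjusted p = 0.105) or NT replicate 2 (limma adjusted p = 0.133), and the call in the OsNAC10 line was lost without either OsNAC10 library (limma adjusted p = 0.129 without replicate 1 and 0.05002 without replicate 2) and without NT replicate 1 (limma adjusted p = 0.0894) or NT replicate 2 (limma adjusted p = 0.112).

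OsAMT1;2 (Os02g0620500) was barely present in these roots. It was at 0.107 and 0.0626 FPKM in the OsNAC5 line, 0.0557 and 0.0803 FPKM in the OsNAC6 line, 0.112 and 0.0921 FPKM in the OsNAC9 line and 0.0174 and 0.0413 FPKM in the OsNAC10 line, against 0.0513 and 0.0824 FPKM in NT. Its mean exceeded that of only 1.08% of the loci tested. Values this low rest on a few fragments. On the log2(FPKM + 1) scale they give fold changes near 0 whatever their ratio (−0.05 to 0.05), so no call was possible. The mean was 43.9% of NT in the OsNAC10 line and 153% in the OsNAC9 line, and whether groups differ is not settled. The names of the neighbouring loci Os02g0620500 and Os02g0620600 are swapped between sources, with RefSeq synonyms giving each name to both genes, so the locus identifiers and not the names fix which of them is meant here. Rice OsAMT1;2 and OsAMT1;3 are both known as mainly root genes.

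Among the 3 ammonium transporter genes, OsAMT1;1 took 69.9% to 84.7% of the summed FPKM in the line libraries and 64.6% and 66.4% in the NT libraries. The summed FPKM of the 3 OsAMT1 genes was 43.1 to 68.2 in the line libraries and 59.7 and 59.8 in the NT libraries, so that both kinds of library overlapped. The ratio of the 3 OsAMT1 genes to the 3 OsNRT2 genes was 0.587 to 1.24 in the line libraries and 0.374 and 0.397 in the NT libraries. The ratio is a description with no test.

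FPKM values are scaled by length, so levels can be ordered between genes. In NT the order of mean FPKM was OsNAR2.1 (78.5), OsNRT2.3 (55.4), OsNRT2.2 (54.4), OsNRT2.1 (45.4), OsAMT1;1 (39.1), OsNRT1.1B (36.3), OsAMT1;3 (20.5) and OsAMT1;2 (0.0668). OsNRT2.3 and OsNRT2.2 overlapped in their NT libraries and cannot be ordered. In each of the 4 lines, OsNRT2.1 and OsNRT2.2 had lower means than OsAMT1;1 and the OsNRT1.1B locus sum, which both stood below them in NT. For OsNRT1.1B this holds for the locus sum only, most of which is Os10t0554200-01. Os10t0554200-02, described as a nitrate transporter, had means of 3.19 to 7.72 FPKM in the lines, below OsNRT2.1 in each, and 13.5 FPKM in NT. The places of OsNRT2.1 and OsNRT2.2 rest on their uncertain split. In the OsNAC10 line OsAMT1;1 had the highest mean of the 8 genes, at 52.3 ± 6.06 FPKM, with OsNAR2.1 at 44.3 FPKM, although OsAMT1;1 replicate 1 (47.98 FPKM) was only just above OsNAR2.1 replicate 2 (47.6 FPKM). OsNRT2.1 and OsAMT1;3 were close to each other in the lines, with means of 7.40 to 14.2 FPKM and 10.1 to 13.1 FPKM, against 45.4 and 20.5 FPKM in NT.

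Differences between the 2 libraries of a group ran the same way in most of the genes. For OsAMT1;3, OsNRT2.1, OsNRT2.2, OsNRT2.3, OsNAR2.1 and OsNRT1.1B, replicate 2 was above replicate 1 in the OsNAC5, OsNAC9 and OsNAC10 lines and in NT, and below it in the OsNAC6 line. This arrangement was noticed after the values were seen and was taken from OsNAR2.1, which has it by definition. Of all loci tested 8.39% had it, and 9.14% of the 4365 loci below NT in every line library. The 6 genes that show it are, among the 8, the 6 that lie below NT in every line library. Among the other nitrogen genes looked at below, OsAMT2;1, OsAMT3;3 (Os02g0550800), OsNIA2 and OsGS1;2 also had it, and the rest did not. OsAMT2;1 lay above NT in every line library, so the arrangement is not limited to genes below NT. For OsNAR2.1 the ratio of replicate 2 to replicate 1 was 1.28, 0.561, 1.53 and 1.16 in the OsNAC5, OsNAC6, OsNAC9 and OsNAC10 lines and 1.13 in NT. The direction of the difference between the libraries of a group was thus the same in these 6 genes, and their test results are not to be read as independent.

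**Figure D4:**
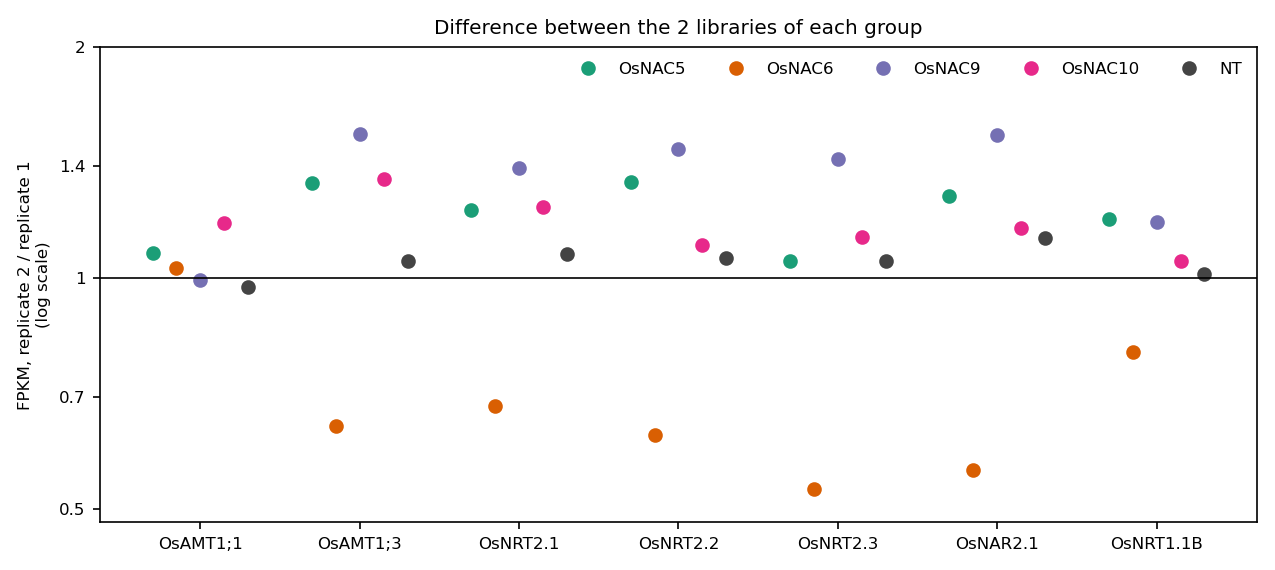
Ratio of FPKM in replicate 2 to replicate 1 (vertical axis, log scale) of 7 genes (horizontal axis) in the 4 lines and NT, leaving out OsAMT1;2 for its low values. For the 6 genes other than OsAMT1;1, the OsNAC6 line lies below 1 and the other 4 groups lie above 1, with NT between 1.01 and 1.13.

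Other transporter genes of the same families were looked at as well, though those far under 1 FPKM can hardly reach 1.5 fold on the log2(FPKM + 1) scale. Of 9 such genes tested, none was called higher in any line, and 0, 1, 0 and 2 were called lower in the OsNAC5, OsNAC6, OsNAC9 and OsNAC10 lines. Over all loci tested, 2.78%, 7.07%, 4.91% and 9.86% were called lower in these lines, and 1.78%, 5.32%, 4.43% and 4.61% higher. In the same order of lines, the medians of the 9 genes were −0.09, 0.00, 0.01 and −0.01. At an unadjusted limma p under 0.05, 4, 5, 3 and 5 of them passed in either direction, beside 20.6%, 38.1%, 33.1% and 40.9% of all loci tested. The lower genes, named after their values were seen because the counts are small, were OsNAR2.2 (Os04g0480200), a relative of OsNAR2.1, in the OsNAC6 (−0.71, limma adjusted p = 0.0151) and OsNAC10 lines (−1.20, limma adjusted p = 0.00123), and OsAMT2;3 (Os01g0831300) in the OsNAC10 line (−0.94, limma adjusted p = 0.00725). OsNAR2.2 was at 1.42 to 4.35 FPKM in the line libraries against 4.72 and 4.92 FPKM in NT. OsNRT2.4 (Os01g0547600) was at 0.0369 to 0.196 FPKM against 0.274 and 0.293 FPKM, too low for a call. Both genes lay below NT in all 8 line libraries, as did 14.6% of all loci tested. OsAMT2;1 (Os05g0468700) lay above NT in all 8, at 4.51 to 7.93 FPKM against 3.94 and 4.25 FPKM. OsNRT1.1A (Os08g0155400), the close relative of OsNRT1.1B, had values on the other side of NT from OsNRT1.1B. It ran from 26.4 to 36.6 FPKM in the line libraries, all above the 23.3 and 22.9 FPKM of NT. Its log2 fold changes were 0.57, 0.30, 0.52 and 0.45 in the OsNAC5, OsNAC6, OsNAC9 and OsNAC10 lines (limma adjusted p = 0.0139, 0.0736, 0.0126 and 0.0145), each under 1.5 fold and not a call. The share of all loci tested that lay above NT in all 8 line libraries is not given here. How unusual that separation is for OsAMT2;1 and OsNRT1.1A can therefore not be judged.

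Enzymes turn the nitrate and ammonium taken up into amino acids. Of 9 assimilation genes tested, 3 were called lower in each line, and 1 was called higher in the OsNAC5, OsNAC6 and OsNAC9 lines. Over all loci tested, 2.78%, 7.07%, 4.91% and 9.86% were called lower in the OsNAC5, OsNAC6, OsNAC9 and OsNAC10 lines. In the OsNAC5, OsNAC6 and OsNAC9 lines, 1.78%, 5.32% and 4.43% were called higher. OsNIA2 (Os02g0770800), a nitrate reductase gene for the first step of nitrate assimilation, was at 12.1 and 13.7 FPKM in the OsNAC5 line, 15.4 and 10.0 FPKM in the OsNAC6 line, 11.4 and 15.3 FPKM in the OsNAC9 line and 7.38 and 8.26 FPKM in the OsNAC10 line, against 36.3 and 38.6 FPKM in NT. All line libraries lay at less than 16 FPKM and well below NT. Its log2 fold changes were −1.47, −1.52, −1.43 and −2.12 in the OsNAC5, OsNAC6, OsNAC9 and OsNAC10 lines (SE 0.19), with limma adjusted p-values of 0.00219, 0.00110, 0.00172 and 0.000164. OsNiR1 (Os01g0357100), the nitrite reductase gene, was called lower in the OsNAC5 line (−0.70, limma adjusted p = 0.0322), at 8.45 and 8.57 FPKM against 13.3 and 15.7 FPKM in NT. The remaining gene called lower in all 4 lines, OsNADH-GOGAT2 (Os05g0555600), a glutamate synthase gene named after its values were seen, was at 0.0644 to 0.330 FPKM in the line libraries against 5.61 and 5.73 FPKM in NT.

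The 2 glutamine synthetase genes with a call in any line were called in opposite directions in the OsNAC6 and OsNAC9 lines only. OsGS1;2 was not called in the OsNAC5 line (−0.15, limma adjusted p = 0.672). OsGS1;3 was not called in the OsNAC10 line (−0.21, limma adjusted p = 0.413). OsGS1;2 (Os03g0223400), the enzyme that first fixes ammonium in rice roots, was at 319 and 322 FPKM in the OsNAC5 line, 164 and 119 FPKM in the OsNAC6 line, 160 and 201 FPKM in the OsNAC9 line and 110 and 127 FPKM in the OsNAC10 line, against 343 and 371 FPKM in NT. It was lower in the OsNAC6 (−1.35), OsNAC9 (−0.99) and OsNAC10 lines (−1.59), with limma adjusted p-values of 0.000841, 0.00470 and 0.000308. OsGS1;3 (Os03g0712800), another cytosolic glutamine synthetase gene, was at 20.6 and 20.8 FPKM in the OsNAC5 line, 4.80 and 3.20 FPKM in the OsNAC6 line, 6.12 and 7.86 FPKM in the OsNAC9 line and 1.03 and 0.971 FPKM in the OsNAC10 line, against 1.13 and 1.49 FPKM in NT. It was higher in the OsNAC5 (3.23), OsNAC6 (1.096) and OsNAC9 lines (1.78), with limma adjusted p-values of 1.2e-05, 0.00313 and 0.000305. Of 5 genes for regulators of the nitrate and ammonium response (OsNLP1, OsNLP3, OsNLP4, OsIDD10 and OsNIGT1), none was called in any line by limma, 2 passed an unadjusted p of 0.05 in the OsNAC10 line and 0 in the other lines, and their medians lay between −0.13 and 0.02.

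**Figure D5:**
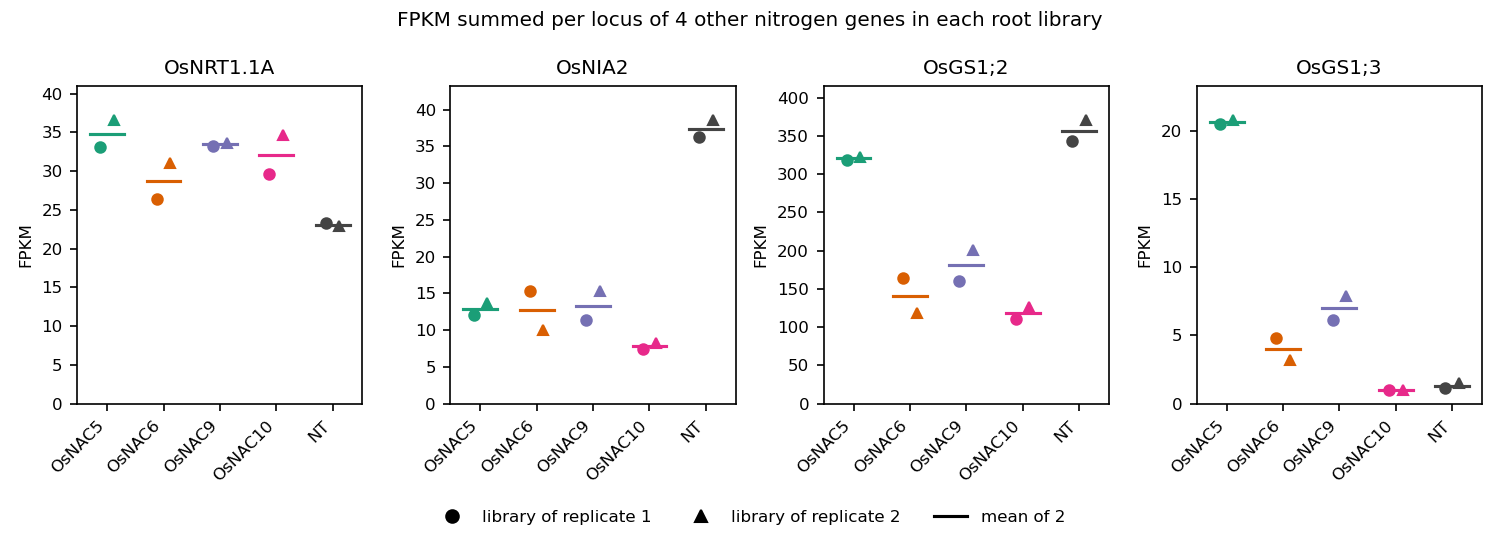
FPKM summed per locus (vertical axes, starting at 0 and differing in scale) of OsNRT1.1A, OsNIA2, OsGS1;2 and OsGS1;3 in the 2 libraries of each line and of NT. Circles are replicate 1, triangles are replicate 2 and horizontal lines are the mean of 2. OsNRT1.1A is above NT in all 8 line libraries, for which no share over all loci tested is given here. OsNIA2 is below NT in all of them, as are 14.6% of all loci tested. OsGS1;3 is highest in the OsNAC5 line, at 20.6 and 20.8 FPKM.

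Genes that report on the state of the roots at harvest were looked at as well, and only part of them differed from NT. The 4 fermentation genes that respond to low oxygen summed to 325 to 739 FPKM in the line libraries against 1051 and 1102 FPKM in NT. Of these 4 genes, 3, 3, 2 and 3 were called lower in the OsNAC5, OsNAC6, OsNAC9 and OsNAC10 lines. Over all loci tested, 2.78%, 7.07%, 4.91% and 9.86% were called lower in these lines. OsPDC2 was called in no line, and OsADH1 was not called in the OsNAC9 line. OsPDC1, a pyruvate decarboxylase gene, was at 0.0537 to 1.92 FPKM in the line libraries against 54.7 and 53.3 FPKM in NT, and OsADH2, an alcohol dehydrogenase gene, was at 128 to 310 FPKM in the line libraries against 518 and 548 FPKM in NT. Their part in the result was not tested. The 7 clock genes summed to 520 to 622 FPKM in the line libraries and to 562 and 572 FPKM in NT. Of them, 1 was called higher in each of the OsNAC6 and OsNAC10 lines, beside 5.32% and 4.61% of all loci tested, and none was called lower. Most of each sum was OsGI, so the sum says little of the other clock genes. OsPRR37 and OsPRR73 were above NT in all 8 line libraries, a separation whose share over all loci tested is not given here. OsPRR59 and OsGI were below NT in all 8, as were 14.6% of all loci tested. OsLHY, OsPRR1 and OsPRR95 showed no such separation. The 4 root markers summed to 2735 to 3965 FPKM in the line libraries and 3242 and 3249 FPKM in NT, so that both kinds of library overlapped. Of the 4, 1, OsHKT2;1, was called lower in all 4 lines, as were 1.72% of all loci tested. It was at 1.27 to 2.70 FPKM in the line libraries against 6.24 and 5.68 FPKM in NT. Of the 6 leaf markers, 1 was called lower in the OsNAC6 and OsNAC10 lines and 1 higher in the OsNAC9 line, where 4.43% of all loci tested were called higher.

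The loci whose pattern over the 5 groups was most like that of OsNAR2.1 or OsAMT1;1 were found by the root mean square difference of centred group means on the log2 scale, among 16398 loci of at least 5 FPKM. For OsNAR2.1 they were Os01g0738600 (ENTH/VHS domain, 0.0335), Os09g0313600 (disease resistance protein domain, 0.0412) and Os07g0578333 (conserved hypothetical protein, 0.0433), all 3 below NT in all 8 line libraries. For OsAMT1;1 they were Os02g0826600 (leucine-rich repeat, 0.0232), Os01g0189700 (ankyrin repeat, 0.0257) and Os02g0715300 (conserved hypothetical protein, 0.0329). None of the 6 deposited descriptions names a nitrogen transporter. The measure compares 5 means only.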

How the data were processed

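Root RNA of 5 groups with 2 libraries each was sequenced with a strand-specific protocol. The authors trimmed adaptors, PCR duplicates and reads of low quality, aligned with TopHat to the IRGSP 1.0 rice genome with RAP-DB genes, and deposited 1 FPKM value per transcript and library (41635 transcripts). The study names Cufflinks for its calls of differential expression, and the tool that computed the FPKM values is not given separately in the sources used here. The table was deposited in 2 copies with 0 differing values, and 0 sample columns were left unused. No read counts were used, so no count test was run and no counting interval is given.

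FPKM values were summed per locus and analysed as log2(FPKM + 1) in R 4.3.3 with limma 3.58.1 (5 groups, no covariate, intensity trend, moderated with 5 residual and 3.36 prior degrees of freedom). Loci at 0 in any library were left out (7954 of 37869). A call needs a Benjamini-Hochberg adjusted p under 0.05 over all loci tested, two-sided, and 1.5 fold. With 2 libraries a group, the spread is shared between groups. The p-values measure the spread between the libraries, which the study calls biological replicates. The fit was tested on simulated data with known changes. Fold changes on this scale understate the change of low genes.

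Named genes are the 8 genes and, from lists of other transporters, assimilation enzymes and regulators, those called in at least 1 line with a mean of at least 5 FPKM. OsNRT1.1A, OsNAR2.2, OsNRT2.4, OsAMT2;1, OsAMT2;3, OsAMT3;3 and OsNADH-GOGAT2 fall outside that rule and were named after their values were seen. Of the listed identifiers, 1 (OsNADH-GOGAT1) was left out because its deposited description names no such protein. The 8 genes and the lists were chosen with earlier results of these data known. RefSeq rows matched 0 of the locus identifiers directly, and neither sequences nor coordinates were used here. Alternatives were a pseudocount of 0.1, other filters, median centring, quantile normalization, no trend, a replicate block, fits of 2 groups, transcripts, other call rules and each library left out. Each transcript alone, also with each library left out, and the sum of OsNRT2.1 and OsNRT2.2 were added after seeing the data.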

Additional observations from a re-analysis of the deposited data

Results flagged for a closer look

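OsAMT1;1 differed between lines. Its change over NT was 0.40 in the OsNAC10 line and −0.18 in the OsNAC6 line, and the test of the difference itself, OsNAC10 minus OsNAC6, gave 0.59 on the log2(FPKM + 1) scale (limma adjusted p = 0.00694). Both OsNAC10 libraries (47.98 and 56.6 FPKM) were above both OsNAC6 libraries (33.9 and 34.9 FPKM). The value is just past 1.5 fold, and the call was not made after quantile normalization or without OsNAC10 replicate 2.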

How the results depend on the processing

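OsNRT2.1 was called lower in all 4 lines under each of its 20 alternatives, and OsNRT2.2 likewise except in the OsNAC5 line without NT replicate 2. Over the 32 fold changes of the 8 genes and 628 alternative values, 580 kept their direction and side of the threshold, 22 lost the call, 21 gained it and 5 changed sign. The 580 overstate how far the results were tried. Without a library of another line, a fold change over NT stays the same and only its p can move. For genes with a single annotated transcript, the transcript fit repeats the fold change of the locus. OsAMT1;2 could not be called on the log2(FPKM + 1) scale. The number of genes called in the OsNAC6 line (5) was 2 with no filter on zeros, 2 in a fit of only the 2 groups compared, 3 at 2 fold and 2 to 6 with each library left out (2 without OsNAC6 replicate 2, NT replicate 1 or NT replicate 2). The number in the OsNAC5 line (2) was 4 in a fit of only the 2 groups, 4 at an unadjusted p, and 1 to 3 with each library left out (1 without NT replicate 2). The number in the OsNAC10 line (3) was 5 in a fit of only the 2 groups, 5 with no fold threshold, and 2 to 5 with each library left out (5 without either OsNAC6 library). The number in the OsNAC9 line stayed between 2 and 3. The number of genes that differed between lines (1) was 0 after quantile normalization, 3 at an unadjusted p, 0 at 2 fold and 0 to 2 with each library left out (2 without OsNAC6 replicate 1, 0 without OsNAC10 replicate 2). The number that differed over the 5 groups (4) was 3 to 7 with each library left out (7 without OsNAC6 replicate 1). The cause was not tested.

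Of the 5 sign changes, 4 were in OsAMT1;2, whose values were near 0. OsAMT1;2 in the OsNAC10 line was 0.035 after median centring, in the OsNAC5 line −0.0056 to 0.054 with each library left out, and in the OsNAC6 line −0.019 to 0.023 with each library left out. Transcript Os01t0704100-01 of OsNRT2.3 alone was at 0.067 in the OsNAC10 line, where the locus sum was at −0.59. Median centring moved the median of all loci in the OsNAC10 line to 0.11, against 0.02 as deposited.

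The replicate number is a shared number only, since the labels name no common batch and deviations of same-numbered libraries correlated between −0.651 and 0.479 over the 10 pairs of groups. With a replicate block the number of genes called was 2, 5, 2 and 3 in the OsNAC5, OsNAC6, OsNAC9 and OsNAC10 lines, 1 between lines and 3 over the 5 groups, against 4 without it.

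Depth is known only as a ratio between libraries, so no counting error can be set beside OsAMT1;2. With 2 libraries a group, the spread rests on 5 residual degrees of freedom shared by all groups.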
